A study of Mus musculus with 5 samples.

Results

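A group of 10 amino acid transporter genes was followed in whole mouse kidneys at embryonic day 15.5, in 2 libraries labelled NICD_mut and 3 labelled NICD_wt. These are Slc3a1, Slc3a2, Slc7a5, Slc7a7, Slc7a8, Slc7a9, Slc7a11, Slc6a19, Slc1a1 and Slc1a5. They were chosen by name, with earlier results of these data known, from 32793 genes in the deposited tables. Each was found by symbol in both tables. NICD_mut kidneys had the genotype Six2TGC/+, RosaN1ICD∆PEST, in which Cre made under Six2 control in nephron progenitors turns on activated Notch1 from the Rosa locus. NICD_wt kidneys were from Cre-free littermates and carried RosaN1ICD∆PEST alone, so the transgenic Rosa allele is shared by both groups while Six2TGC is in NICD_mut only. The driver and the activated receptor cannot be told apart in this design. The labels do not tie a library to an animal, so the p-values measure the spread between these libraries, which may be technical. Library totals ran from 17361823 to 21356447 counts.

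Amino acids filtered at the glomerulus are taken back by the proximal tubule, which carries one set of transporters on its luminal brush border and another on its basolateral side. Several of these transporters are pairs, in which a heavy chain (the Slc3a1 or Slc3a2 protein) brings a light chain of the Slc7 family to the membrane. Other light chains of Slc3a2, and the transporter Slc1a5, are known for feeding growing cells and occur in many cell types. The name "proximal" therefore fits only some of these genes, and whole-kidney RNA does not show which cells a transcript came from. It also cannot tell fewer cells of a type from less RNA per cell.

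The genes moved in both directions. The heavy chains Slc3a1 and Slc3a2 and the light chains Slc7a7, Slc7a8 and Slc7a9 were higher in NICD_mut kidneys, by 1.82-fold to 4.47-fold. Slc7a5, Slc7a11 and Slc1a5 were lower, at 0.543 to 0.685 of their NICD_wt level. The luminal transporters Slc1a1 and Slc6a19 did not pass the test. All 10 genes were expressed well enough in the libraries to be tested. By the edgeR quasi-likelihood test on counts, with Benjamini-Hochberg adjustment over all 15885 tested genes and a threshold of 0.05, 8 of the 10 passed, where 47.7% of all tested genes passed. In NICD_mut 5 were higher, beside 23.0% of all tested genes, and 3 were lower, beside 24.8%. Of the higher genes 4 were up by 2-fold or more, beside 7.93% of all tested genes, while each lower gene changed by less than that, beside 4.01%. The median log2 change of the 10 was 0.46 and that of all tested genes 0.01. Counts scaled for library size (CPM) of the groups did not overlap for 8 of the 10, beside 67.2% of all tested genes.

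**Figure D1:**
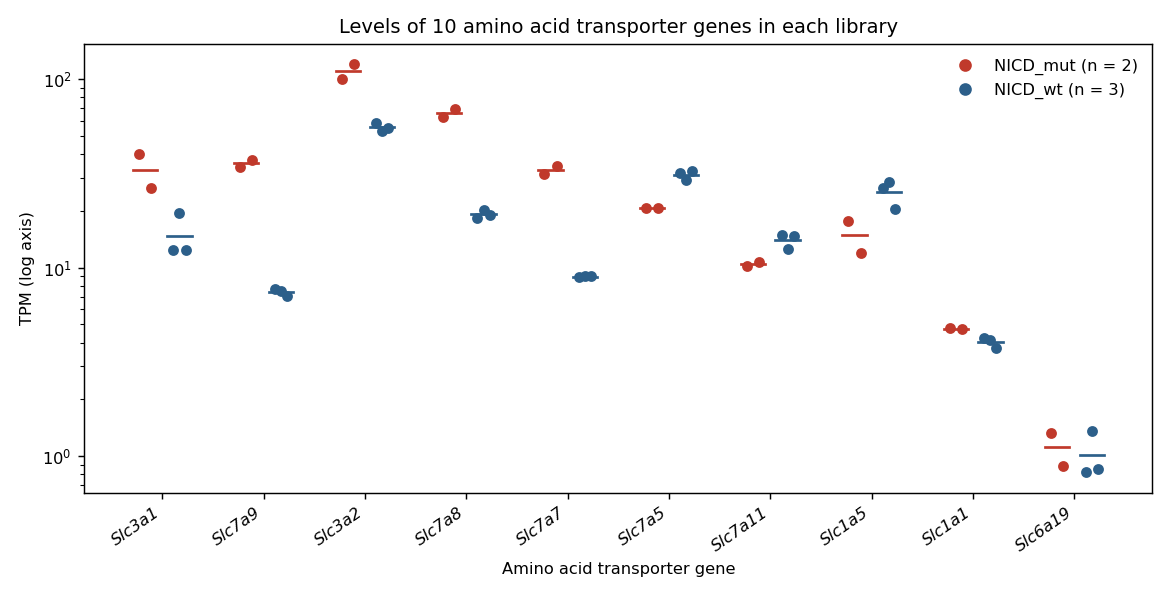
Level of each of the 10 genes in TPM (transcript abundance scaled for length and depth, log axis), 1 point per library, with NICD_mut left of NICD_wt and a line at each group mean. Slc3a1, Slc7a9, Slc3a2, Slc7a8 and Slc7a7 lie higher in NICD_mut, Slc7a5, Slc7a11 and Slc1a5 lie lower, and Slc6a19 is near 1 TPM in both groups.

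Promoter sequence from RefSeq (GRCm38.p6, the mm10 assembly) was matched by symbol for 8 of the 10 genes, all but Slc7a5 and Slc1a5. The window was the 250 bases before the outermost start in the RefSeq table. For Slc3a2 (chr19:8713898-8714147), Slc6a19 (chr13:73692637-73692886) and Slc7a9 (chr7:35448842-35449091) the window lies inside the GENCODE gene. For these genes the bases before the outermost GENCODE start were not searched. Each window was searched on both strands for TGATGNAA, a composite element bound by the amino acid response factor Atf4, with no mismatch. The motif was chosen after the changes and the sequences had been seen. It is in 3.53% of 27025 promoter windows of this length. A match was found in 2 of the 8 windows, which are shown 5′ to 3′ on the gene's strand, without annotated exon bases and with the matches in capitals. Slc7a7 was among the genes that were higher in NICD_mut, and Slc7a11 among those that were lower.
Slc7a7 (chr14:54417945-54418194, minus strand): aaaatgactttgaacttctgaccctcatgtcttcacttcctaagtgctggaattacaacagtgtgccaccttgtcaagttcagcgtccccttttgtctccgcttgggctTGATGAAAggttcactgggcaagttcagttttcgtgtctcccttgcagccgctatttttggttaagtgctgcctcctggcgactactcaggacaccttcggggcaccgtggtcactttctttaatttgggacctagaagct
Slc7a11 (chr3:50443615-50443863, minus strand): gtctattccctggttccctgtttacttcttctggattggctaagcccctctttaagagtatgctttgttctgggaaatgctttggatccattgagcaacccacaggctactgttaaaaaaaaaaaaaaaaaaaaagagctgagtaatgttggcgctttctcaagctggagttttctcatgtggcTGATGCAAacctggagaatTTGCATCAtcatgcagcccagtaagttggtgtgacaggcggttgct
The Slc7a11 window held 2 exact Atf4-type elements, at 66 to 59 bases before the start and, on the opposite strand, at 47 to 40 bases. The Slc7a7 window held 1 such element at 141 to 134 bases. These matches describe letters and do not show binding.

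The luminal pair is Slc3a1 with Slc7a9, which together take up cystine and dibasic amino acids and whose human forms are altered in cystinuria. Slc7a9 (chromosome 7, mm10, 35448796 to 35466036, plus strand), the light chain, was at 34.33 and 37.30 TPM in NICD_mut 1 and 2, against 7.73, 7.55 and 7.02 TPM in NICD_wt 1, 2 and 3. Both NICD_mut libraries were far above every NICD_wt library. Its log2 change on counts was 2.16 (SE 0.12, 4.47-fold; adjusted p = 4.02e-06 by edgeR), the largest of the 10. Slc3a1 (chromosome 17, 85028376 to 85064236, plus strand), the heavy chain, was at 39.89 and 26.33 TPM in NICD_mut 1 and 2, against 12.42, 19.55 and 12.33 TPM in NICD_wt 1, 2 and 3. The groups did not overlap, but the spread within each was wide and NICD_wt 2 came close to NICD_mut 2.

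The log2 change of Slc3a1 was 1.04 (SE 0.28; adjusted p = 0.0338 by edgeR). Its call rested on single libraries. Without NICD_mut 1 it was 0.73 and did not pass (adjusted p = 0.127 by edgeR), and without NICD_wt 1 or 3 it was 0.93 and 0.92 and did not pass (adjusted p = 0.0854 and adjusted p = 0.0848 by edgeR). It was 1.29 without NICD_wt 2. Slc3a1 also shares 601 exon bases, 26.5% of its annotated exon length, with Prepl on the opposite strand, and the strand setting of the counting is not given in the sources used here. Prepl, a peptidase-like gene, had 88.0 and 66.4 CPM in NICD_mut 1 and 2, against 66.1, 66.8 and 61.6 CPM in NICD_wt, and did not pass (log2 change 0.25, SE 0.12). NICD_mut 1 was the high library for both genes. Whether reads of Prepl entered the Slc3a1 counts was not tested.

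In TPM, Slc7a9 stood at 0.861 and 1.42 times Slc3a1 in NICD_mut 1 and 2, against 0.622, 0.386 and 0.569 times in NICD_wt. The groups did not overlap, and an exact two-sided permutation test gave p = 0.1, the smallest that 2 against 3 libraries can give. Slc7a13, the other light chain known to pair with Slc3a1 in mouse kidney, went the other way. Its counts were 37 and 43 in the NICD_mut libraries, against 258, 289 and 166 in those of NICD_wt, with a log2 change of -2.64 (SE 0.24; adjusted p = 4.31e-05 by edgeR). Of these 2 light chains, 1 rose and 1 fell.

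On the basolateral side Slc3a2 is the heavy chain, Slc7a8 a light chain that exchanges neutral amino acids, and Slc7a7 a light chain that exports dibasic amino acids and whose human form is altered in lysinuric protein intolerance. Slc7a8 (chromosome 14, 54722209 to 54781946, minus strand) was at 62.79 and 69.59 TPM in NICD_mut 1 and 2, against 18.35, 20.31 and 18.96 TPM in NICD_wt 1, 2 and 3. Slc7a7 (chromosome 14, 54369442 to 54417780, minus strand) was at 31.48 and 34.42 TPM in NICD_mut 1 and 2, against 8.90, 8.98 and 8.99 TPM in NICD_wt 1, 2 and 3. For both light chains every NICD_mut library was over every NICD_wt library by a wide gap. The log2 change of Slc7a8 was 1.66 (SE 0.08; adjusted p = 1.83e-06 by edgeR). That of Slc7a7 was 1.76 (SE 0.11; adjusted p = 5.86e-06 by edgeR). Slc7a7 shares 232 exon bases, 7% of its exon length, with Oxa1l on the opposite strand, and Oxa1l was at 99.0 and 105 CPM in NICD_mut against 106, 105 and 102 CPM in NICD_wt (log2 change -0.04, SE 0.06), which did not pass.

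Slc3a2 (chromosome 19, 8706882 to 8723369, minus strand) was at 100.28 and 119.62 TPM in NICD_mut 1 and 2, against 58.14, 52.73 and 55.32 TPM in NICD_wt 1, 2 and 3. It was higher in both NICD_mut libraries, with a log2 change of 0.86 (SE 0.09; adjusted p = 0.000163 by edgeR). It had the highest TPM of the 10 genes in both groups.

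The light chains Slc7a5 and Slc7a11 were lower. Slc7a5 (chromosome 8, 121881150 to 121907694, minus strand), which brings in large neutral amino acids such as leucine, was at 20.78 and 20.70 TPM in NICD_mut 1 and 2, against 31.70, 29.10 and 32.61 TPM in NICD_wt 1, 2 and 3. The groups were well apart, with a log2 change of -0.71 (SE 0.08; adjusted p = 0.000118 by edgeR). Slc7a11 (chromosome 3, 49892526 to 50443614, minus strand), which exchanges cystine for glutamate and so feeds glutathione synthesis, was at 10.22 and 10.76 TPM in NICD_mut 1 and 2, against 14.95, 12.56 and 14.70 TPM in NICD_wt 1, 2 and 3. Its change was the smallest of those that passed, at -0.55 log2 (SE 0.09; adjusted p = 0.00103 by edgeR).

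Slc1a5 (chromosome 7, 16781340 to 16798274, plus strand), a sodium-dependent carrier of glutamine and other small neutral amino acids, needs no heavy chain. It was at 17.76 and 12 TPM in NICD_mut 1 and 2, against 26.32, 28.42 and 20.46 TPM in NICD_wt 1, 2 and 3. Its libraries spread widely within both groups, with NICD_mut 1 and NICD_wt 3 lying close to each other, and its log2 change was -0.88 (SE 0.20; adjusted p = 0.0128 by edgeR). Its change stayed past the threshold when any 1 NICD_wt library was left out. With a lone NICD_mut library it was -0.66 without NICD_mut 2 and -1.16 without NICD_mut 1.

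The remaining luminal carriers showed no detectable change. Slc1a1 (chromosome 19, 28835049 to 28913960, plus strand), a glutamate and aspartate carrier, was at 4.78 and 4.70 TPM in NICD_mut 1 and 2, against 4.25, 4.11 and 3.76 TPM in NICD_wt 1, 2 and 3. In TPM the groups did not overlap, whereas in CPM they did, and the log2 change on counts was 0.06 (SE 0.16). It shares 2631 exon bases, 31.9% of its exon length, with 4430402I18Rik on the opposite strand, a gene with 40 counts over all 5 libraries. Slc6a19 (chromosome 13, 73679745 to 73704865, minus strand), the main luminal carrier of neutral amino acids in the adult tubule and the gene altered in human Hartnup disorder, was barely detected in either group. It had 36 and 24 counts in NICD_mut 1 and 2, against 23, 41 and 21 counts in NICD_wt 1, 2 and 3. The exact 95% Poisson intervals, which cover counting error only, ran from 15.4 to 49.8 counts over the NICD_mut libraries and from 13.0 to 55.6 over the NICD_wt libraries. The log2 change was 0.00 (SE 0.42), so a change of the size of that error was not detectable at this depth. Tmem27, which encodes the partner that Slc6a19 needs at the membrane in kidney, was at 31.2 ± 2.63 CPM over the 2 NICD_mut libraries and 31.4 ± 3.84 CPM over the 3 NICD_wt libraries (SD).

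**Figure D2:**
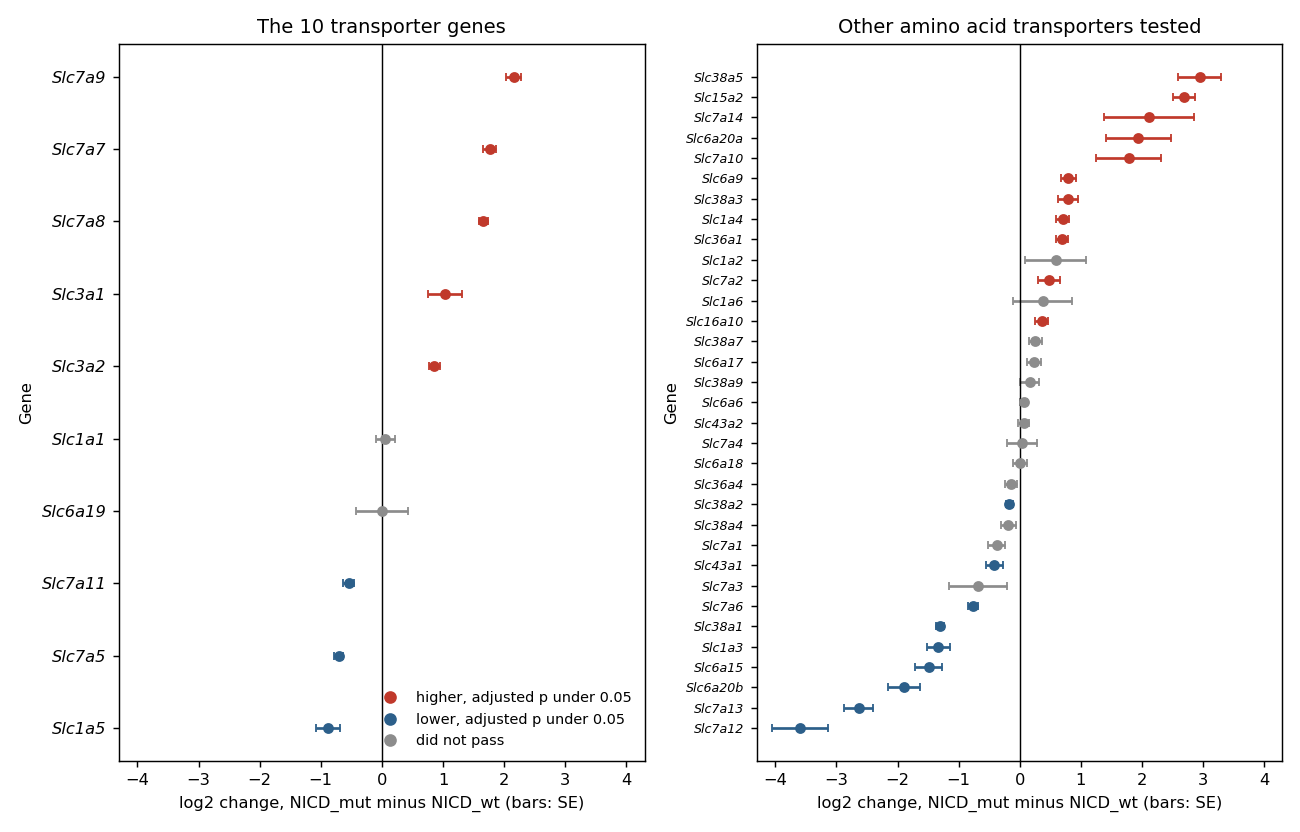
Log2 change of NICD_mut minus NICD_wt with its standard error, for the 10 genes (left) and for the 33 other amino acid transporter genes that were tested (right), coloured by whether the edgeR test passed. The 10 genes range from -0.88 for Slc1a5 to 2.16 for Slc7a9, and the others from -3.59 for Slc7a12 to 2.95 for Slc38a5.

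The order of levels in TPM differed between the groups. In NICD_mut the order by mean was Slc3a2, Slc7a8, Slc7a9, Slc3a1, Slc7a7, Slc7a5, Slc1a5, Slc7a11, Slc1a1 and Slc6a19. In NICD_wt it was Slc3a2, Slc7a5, Slc1a5, Slc7a8, Slc3a1, Slc7a11, Slc7a7, Slc7a9, Slc1a1 and Slc6a19. Neighbours whose library ranges overlapped were Slc7a9 with Slc3a1 and Slc3a1 with Slc7a7 in NICD_mut, and Slc7a8 with Slc3a1 and Slc3a1 with Slc7a11 in NICD_wt. All other neighbours were separate in their group.

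The make-up of the light chains that pair with Slc3a2 was therefore compared within libraries, as shares of the summed TPM of Slc7a5, Slc7a6, Slc7a7, Slc7a8, Slc7a10 and Slc7a11. Slc7a8 made up 43.3 and 45.3% of that sum in NICD_mut 1 and 2, against 18.3, 20.9 and 18.5% in NICD_wt 1, 2 and 3. Slc7a7 made up 21.7 and 22.4% in NICD_mut, against 8.90, 9.25 and 8.76% in NICD_wt. The 2 basolateral light chains were thus the larger part of the sum in each NICD_mut library and the smaller part in each NICD_wt library. Slc7a5 made up 14.3 and 13.5% in NICD_mut, against 31.7, 30.0 and 31.8% in NICD_wt. Slc7a6, a further light chain for dibasic and neutral amino acids, made up 11.2 and 10.8% in NICD_mut, against 25.5, 26.4 and 25.7% in NICD_wt. Slc7a11 made up 7.05 and 6.997% in NICD_mut, against 14.9, 12.9 and 14.3% in NICD_wt. These 3 shares were each smaller in both NICD_mut libraries than in any NICD_wt library. The share of Slc7a10, named to complete the sum, was 2.39 and 1.14% in NICD_mut, against 0.590, 0.526 and 0.964% in NICD_wt. The shares of each of the 6 light chains did not overlap between groups. They are parts of the same sum, so a rise of some lowers the others, and the 6 are not separate results. By a different measure, CPM per gene, 67.2% of all tested genes did not overlap either. Shares within a library do not depend on how libraries are scaled.

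In the edgeR test all 6 light chains passed, 3 higher and 3 lower. Among all tested genes 23.0% were higher and 24.8% lower. Slc7a10, among the higher, had few counts, at 73 and 22 in NICD_mut 1 and 2, against 13, 12 and 13 in NICD_wt. Slc7a6 was among the lower, at 33.6 ± 2.22 CPM over the 2 NICD_mut libraries and 57.3 ± 1.92 CPM over the 3 NICD_wt libraries (SD), a log2 change of -0.77 (SE 0.08). The summed TPM of the light chains was 145 and 154 in NICD_mut, against 100.01, 97.0 and 103 in NICD_wt. Divided by the TPM of Slc3a2 it was 1.45 and 1.29 in NICD_mut, against 1.72, 1.84 and 1.86 in NICD_wt. The ratio averaged 1.37 ± 0.114 in NICD_mut (SD, n = 2) and 1.81 ± 0.0742 in NICD_wt (SD, n = 3). An exact two-sided permutation test gave p = 0.1, again the smallest possible. The ratio compares transcripts and not protein chains.

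**Figure D3:**
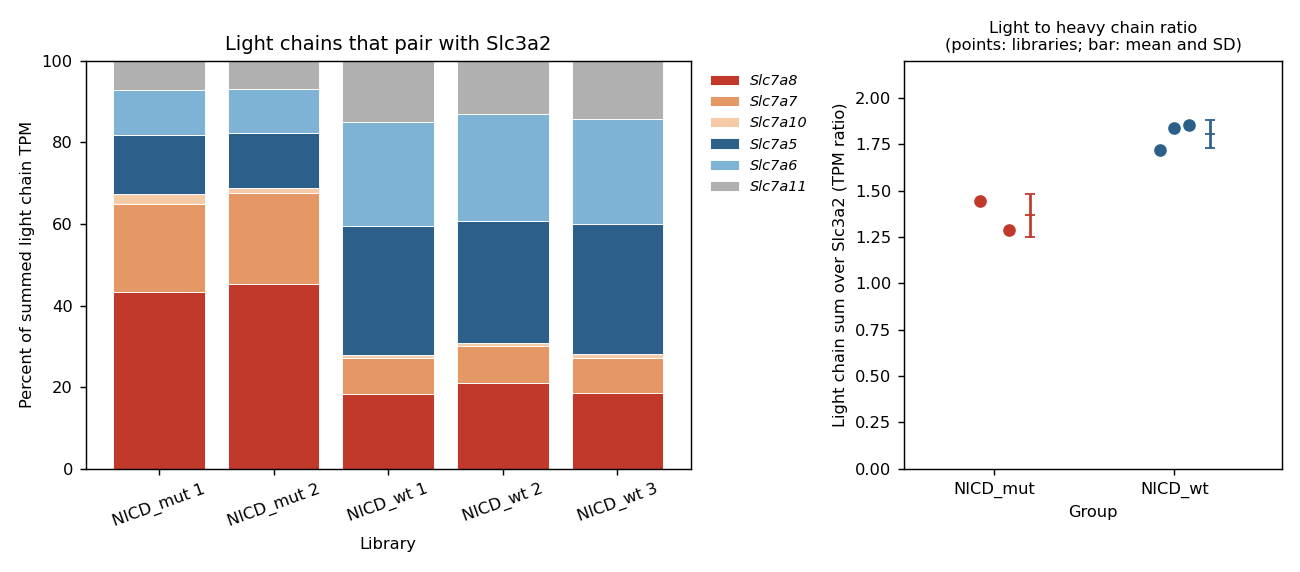
Left, share of each of 6 light chain genes in their summed TPM, 1 bar per library. Right, the summed light chain TPM over the TPM of Slc3a2 in each library, with mean and SD per group. Slc7a8 and Slc7a7 take the larger part of each NICD_mut bar, and the ratio is 1.29 and 1.45 in NICD_mut against 1.72 to 1.86 in NICD_wt.

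Among 36 other amino acid and peptide transporter genes, 33 were tested, and 11 were higher, 9 were lower and 13 did not pass; 60.6% passed, beside 47.7% of all tested genes, and their median log2 change was 0.07. The peptide carrier Slc15a2, found on the tubule's luminal side, was at 99.2 and 144 CPM in NICD_mut, against 17.5, 21.0 and 18.3 CPM in NICD_wt, a log2 change of 2.68 (SE 0.18). Slc38a5, a glutamine and histidine carrier, had 152 and 262 counts in the NICD_mut libraries, against 30, 18 and 27 in those of NICD_wt, and rose by 2.95 log2 (SE 0.35). Both were higher in each NICD_mut library than in any NICD_wt library. The sodium-coupled glutamine carrier Slc38a1 fell by 1.30 log2 (SE 0.06), to 54.3 ± 2.38 CPM over the 2 NICD_mut libraries against 134 ± 4.03 CPM over the 3 NICD_wt libraries (SD). Slc7a12, a relative of the light chains, had 6 and 4 counts in the NICD_mut libraries, against 46, 74 and 54 in those of NICD_wt, and fell by 3.59 log2 (SE 0.46). Slc6a18, a kidney carrier related to Slc6a19 and chosen after its values were seen, was at 29.6 ± 2.92 CPM over the 2 NICD_mut libraries and 29.5 ± 2.92 CPM over the 3 NICD_wt libraries (SD). The count of higher genes in this group fell to 7 without NICD_wt 2 or without NICD_wt 3.

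Of 30 proximal tubule markers 16 were higher, 8 were lower and 6 did not pass, with a median log2 change of 0.51, and their summed level was 3358 and 3681 CPM in NICD_mut, against 1868 to 2170 CPM in NICD_wt. Each count of markers stands beside 23.0% higher and 24.8% lower among all tested genes. The creatine enzyme Gatm rose by 3.41 log2 (SE 0.09) and the bicarbonate carrier Slc4a4 by 1.89 (SE 0.08). Other proximal genes of the list went the other way. The dicarboxylate carrier Slc13a3 fell by 3.17 log2 (SE 0.46) and the glucose carrier Slc5a1 by 2.78 (SE 0.22). The sodium-proton exchanger Slc9a3 fell by 1.71 (SE 0.27) and the endocytic receptor Cubn by 0.87 (SE 0.24). These 4 were chosen after their values were seen. Macrophages also express Slc7a7. Of 12 leukocyte markers 10 were higher and 2 did not pass, with a median log2 change of 1.34. Their summed level was 256 and 243 CPM in NICD_mut against 93.7 to 104 CPM in NICD_wt. The receptor Csf1r rose by 1.69 log2 (SE 0.10). Ptprc of this list went the other way and did not pass, at -0.38 log2 (SE 0.21). It was at 6.47 and 5.77 CPM in NICD_mut, against 8.26, 9.12 and 6.50 CPM in NICD_wt, and was named after its values were seen. All 10 endothelial markers were higher (median 0.68, summed level 1589 and 1997 CPM in NICD_mut against 869 to 966 CPM in NICD_wt), as were 5 of 8 tested erythroid markers (median 1.011, 10230 and 11411 CPM in NICD_mut against 4504 to 5820 CPM in NICD_wt). The part of these cell types in the transporter changes was not tested.

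Of 14 cell cycle genes 13 were lower, beside 24.8% of all tested genes, with a median log2 change of -0.86 and a summed level of 1538 and 1514 CPM in NICD_mut against 2431 to 2481 CPM in NICD_wt. Slc7a5, Slc7a11 and Slc1a5 were lower in the same libraries, and the part of cell division in this was not tested. Loop of Henle and distal tubule markers were lower in 11 of 12 cases tested, also beside 24.8% (median -5.21, summed level 18.5 and 20.3 CPM in NICD_mut against 546 to 638 CPM in NICD_wt). Ureteric epithelium markers were lower in 8 of 10, with 1 higher, beside 24.8 and 23.0% (median -2.59, 428 and 350 CPM in NICD_mut against 679 to 720 CPM in NICD_wt). Calb1 is in both of these lists. What these segments contribute to the transporter levels in NICD_wt was not tested. Of 7 liver markers tested 2 were higher, beside 23.0% (median 0.43, 139 and 141 CPM in NICD_mut against 58.2 to 99.0 CPM in NICD_wt). Skeletal muscle markers were at 3301 and 14.7 CPM in NICD_mut 1 and 2, against 139, 4.96 and 4.603 CPM in NICD_wt 1, 2 and 3, and the smallest adjusted p among these 8 genes was 0.188 by edgeR (median log2 change 4.96). Leaving out NICD_mut 1 and NICD_wt 1, the libraries richest in muscle transcripts, leaves a lone NICD_mut library, so only the size of the changes is given. The 8 genes that had passed kept their direction, at -1.13 to 2.26 log2, with Slc3a1 at 0.62. The part of muscle transcripts in the transporter changes was not tested.

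Slc7a5, Slc7a11, Slc3a2 and Slc1a5 are known targets of Atf4, the transcription factor that answers amino acid shortage, and Slc7a11 also of the oxidative stress factor Nfe2l2. Slc3a2 rose while the others fell. Atf4 itself was at 131 ± 8.30 CPM over the 2 NICD_mut libraries and 165 ± 8.11 CPM over the 3 NICD_wt libraries (SD), a log2 change of -0.33 (SE 0.07) that passed. This is a transcript level, and the amount and activity of the Atf4 protein were not measured. Of 20 other genes of the amino acid response, Atf4 included, 5 were higher, 5 were lower and 10 did not pass, with a median of -0.12. The folate enzyme Mthfd2 fell by 1.77 log2 (SE 0.13) and the serine enzyme Psph by 1.24 (SE 0.11), while the secreted protein Stc2 rose by 5.0 (SE 0.21). Of 12 Nfe2l2 targets 2 were higher, 4 were lower and 6 did not pass, with a median of -0.12; Gclc, a subunit of the first glutathione enzyme, fell by 1.08 log2 (SE 0.09). Passing shares were 50% in both lists, beside 47.7% of all tested genes.

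The genes whose log2 CPM over the 5 libraries was most like that of a heavy chain or of Slc7a8 were found among 12719 tested genes, by the root mean square difference of centred profiles. For Slc7a8 they were Myo15b (0.0404 log2), Mtcl1 (0.0519) and Uap1l1 (0.0552). For Slc3a2 they were Nrep (0.0302), Basp1 (0.0336) and the brush border peptidase Xpnpep2 (0.0436). For Slc3a1 they were Ecm2 (0.0685), the cytochrome Cyp2j5 (0.0736) and Vwa1 (0.0829). With 5 libraries in 2 groups such likeness is mostly a like difference between the groups.

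**Figure D4:**
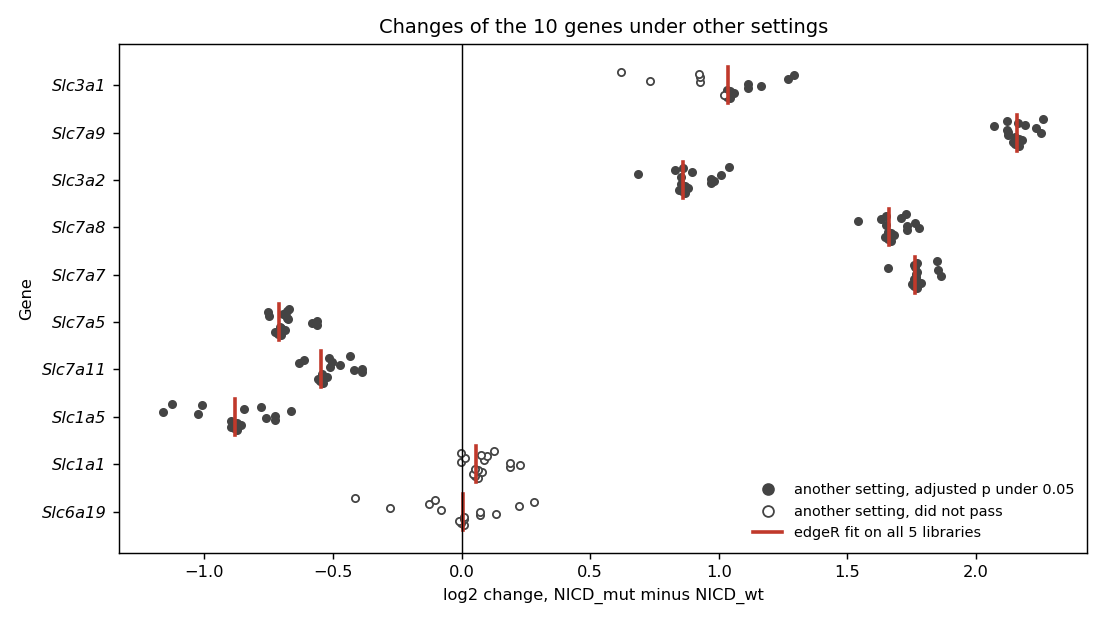
Log2 change of each of the 10 genes under 15 or 16 other settings (points, filled where the adjusted p was under 0.05), with the value of the fit on all 5 libraries as a bar. Slc3a1 has open points at 0.62 to 1.02, the other 7 genes that passed stay filled, and Slc6a19 spreads from -0.42 to 0.28.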

How the data were processed

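Bulk RNA libraries of whole embryonic kidneys, 2 NICD_mut and 3 NICD_wt, were grouped by their titles. The authors deposited estimated counts per gene symbol, as whole numbers, and TPM values with 1 common sum. Reads were placed on mm10 with Bowtie2 and quantified by RSEM, which divides reads between similar genes by estimation, per the submitters' processing notes. No tool version, annotation or strand option is named in the sources used here. Library totals were 17361823 to 21356447 counts.

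From the counts, TMM scaling (factors 0.9964 to 1.0054), filterByExpr by group (minimum count 10, total 15; 15885 genes kept) and the edgeR 4.0.16 quasi-likelihood test (robust, no covariates) in R 4.3.3 were used, with Benjamini-Hochberg adjustment over all tested genes. Every adjusted p in the text is from it unless named otherwise. Log2 changes are NICD_mut minus NICD_wt; the SE is the change divided by the square root of the F statistic. CPM are counts scaled with the TMM factors. The test was checked on simulated counts that gave all genes a common dispersion. Spread differs between genes in these data, so that check does not give the error rate here. Alternatives used DESeq2 1.42.0, limma 3.58.1 (voom, and log2 TPM with pseudocounts of 1 and 0.1), other scalings and filters, a replicate block and left-out libraries. Positions are from GENCODE M21. Figures were drawn with matplotlib 3.10.9.

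The genes and all lists were chosen with earlier results of these data known. Named genes were the 10, the Slc6a19 partner Tmem27, the 6 other transporters and up to 3 members of each further list with the smallest adjusted p, and the 3 nearest profiles. Atf4 and the overlapping genes were named after their values were seen. Not every gene taken by this rule is reported.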

Additional observations from a re-analysis of the deposited data

How the results depend on the processing

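Slc3a2, Slc7a5, Slc7a7, Slc7a8, Slc7a9, Slc7a11 and Slc1a5 kept their direction and passed under all 16 other settings. Slc3a1 kept its direction under all 16 and did not pass under 6, which included no filter (1.02), the replicate block (0.93), and leaving out NICD_mut 1 with NICD_wt 1 (0.62). With 1 library left out, 4 to 5 of the 10 genes were higher and 3 were lower; fits with a lone NICD_mut library assume that it varies like the other group. Neither Slc1a1 nor Slc6a19 passed under any setting run. Slc6a19 changed sign with library size alone (-0.0009), with no filter (-0.0106), with the replicate block (-0.0808) and without NICD_mut 1 and NICD_wt 1 (-0.42), and was at -0.28, -0.13 and -0.10 without NICD_mut 1, NICD_wt 1 or NICD_wt 3 (up to 0.28 without NICD_wt 2). Slc1a1 was at -0.0014 with the replicate block and at -0.0025 to 0.0998 with 1 library left out. At 21 to 41 counts, depth limits Slc6a19.

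Other transporters called higher numbered 6 with the replicate block and 7 to 10 with 1 library left out, against 11, and lower ones 7 to 11. Of all genes, 2797 to 3843 were higher and 3101 to 4207 lower with 1 library left out. By limma on log2(TPM + 1) the median of all genes was 0.11 and 60.7% of called genes were higher, against 48.1% on counts, and with no filter 2606 were lower. Relative to that median, changes on log2(TPM + 1) were 2.02 for Slc7a9, 1.66 for Slc7a7, 1.63 for Slc7a8, 1.0096 for Slc3a1 and 0.87 for Slc3a2. They were -0.67 for Slc7a5, -0.49 for Slc7a11 and -0.83 for Slc1a5. The light chain to Slc3a2 ratio differed by -0.439 in TPM, by -0.520 to -0.359 with 1 library left out, and by -1.04 in CPM, which is not per length. In CPM the share of Slc7a7 differed by 7.55 percentage points, against 13.1 in TPM, and that of Slc7a11 by -13.4, against -7.05. Replicate numbers do not mark shared animals in the labels. Deviations from the group mean correlated across genes with r of 0.34 for the libraries numbered 1 and 0.15 for those numbered 2. The deviations of the 2 NICD_mut libraries are mirror images, so these r values are not independent and cannot show pairing. The cause of the differences between settings was not tested.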

Other observations

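Slc7a7 and Slc7a8 lie on the same strand of mouse chromosome 14, 304 kb apart, and both were over 3-fold higher in NICD_mut. Of 12 tested genes that lie between them, 2 were higher, 4 were lower and 6 did not pass by the edgeR quasi-likelihood test, beside 23.0% higher and 24.8% lower among all tested genes, so the count for these neighbours is near that of all genes. None of the 12 was at least 2-fold higher. The membrane protease Mmp14 came nearest, at 0.97 log2 (SE 0.05), and the arginine methyltransferase Prmt5 was the lowest, at -0.65 (SE 0.06); both were named after their values were seen.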
